A study of Mus musculus with 4 samples.

Results

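Insulin-like growth factor 1 is a secreted growth factor, and the 9 genes described here encode it, its sister ligand, their signalling receptor and 6 of the binding proteins that hold both ligands outside the cell. The genes are Igf1, Igf2, Igf1r, Igfbp2, Igfbp3, Igfbp4, Igfbp5, Igfbp6 and Igfbp7. They were taken as a named list, with earlier results of these data known, from the 27998 genes of single-cell RNA libraries of mouse aorta. Each was matched to its symbol by Ensembl identifier. All 9 had counts. The fullest, Igfbp4, had 45656 molecules in the analysed cells, and Igfbp2 had 55. Igfbp1, which codes for a binding protein outside the list, had 0.

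The study took cells from 4 aortic preparations of C57BL/6 mice and, by its title, concerns intimal macrophages and clots where flow is turbulent. The aged adventitia library came from the outer coat. The young arch intima library pooled 8 mice, and the aged descending intima gave 2 libraries of 6 pooled mice each. For the intima, the perfused aorta lost its adventitia, was laid open and digested with trypsin, and its endothelium was scraped off with a microscalpel. Actinomycin D, which blocks new transcription, was present, and red cells were lysed. The labels give the adventitia the same text as the intima and no number of mice, and they give age only as aged or young, with no sex and no genetic change or drug that differs between groups. Arch and descending aorta therefore differ in age and library as well as region. Adventitia and intima differ in layer and library, and perhaps in preparation, which the labels leave unclear. Within each pair these cannot be told apart. The labels do not say that the descending libraries came from separate days, so the spread between libraries behind the p-values may be technical. In the contrasts between preparations that spread is nearly all pooled over genes.

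The libraries held 7851 analysed cells for the adventitia, 2114 for the arch, and 1988 and 2091 for descending libraries 1 and 2. Median depth per cell was 2473 molecules (unique molecular identifiers, UMIs) in the adventitia, 6952 in the arch, and 5198.5 and 4872 in the descending libraries. Pairs of libraries shared between 4 and 31 cell barcodes, and the descending pair shared 7. Clusters were named from marker lists that left out the 9 genes, so each name reads as "like" that cell type. Macrophage-like cells numbered 546 in the adventitia, 115 in the arch, and 81 and 70 in the descending libraries. Fibroblast-like cells numbered 1431, 436, 337 and 649 in the same order. Endothelial-like cells numbered 1245 in the arch and 1466 and 1285 in the descending libraries. The adventitia had 6 cells in this named class, too few to use. Another 370 adventitial cells, in cluster 13, matched 9 endothelial markers, and 38 in cluster 27 matched 11. Both clusters were left unnamed by the naming rule, so 6 is not a count of all adventitial endothelium. Clusters 14 and 25 matched macrophage markers and were also left unnamed. Levels below are CPM, a gene's UMIs scaled to the summed UMIs of a class in a library, with exact Poisson 95% intervals that cover counting error only. A 3′ tag library counts molecules and not bases, so CPM was not divided by transcript length.

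IGF1 and IGF2 signal mainly through the IGF1 receptor, a tyrosine kinase that feeds the PI3K, AKT and mTOR pathway and supports growth and survival. In the blood and between cells the ligands are held by IGF binding proteins, which lengthen their life, limit their access to the receptor, and release them when proteases cut the binding protein. In the vessel wall, smooth muscle cells, fibroblasts, endothelial cells and macrophages are all known to make parts of this system. IGFBP7 binds IGFs with low affinity and is known as a secreted protein of endothelium and stroma.

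The genes that carry most of the values lie on 5 chromosomes, and the sequences before their starts are shown here because levels of these genes part the macrophage, fibroblast and endothelial classes in the results that follow. Each is the 250 bases before the RefSeq transcript start in build GRCm38.p6, on the strand of the gene, 5′ to 3′. Capitals mark a TATAAA or a GGGCGG match on either strand. The windows are chr10:87860861-87861110 on the plus strand for Igf1, chr11:99040994-99041243 on the plus strand for Igfbp4, chr1:72874866-72875115 on the minus strand for Igfbp5, chr15:102143936-102144185 on the plus strand for Igfbp6, and chr5:77408046-77408295 on the minus strand for Igfbp7. RefSeq starts need not equal the gene bounds of other annotations: the Igf1 window lies within the GENCODE M21 gene, which runs from 87858265 to 87937042.
Igf1: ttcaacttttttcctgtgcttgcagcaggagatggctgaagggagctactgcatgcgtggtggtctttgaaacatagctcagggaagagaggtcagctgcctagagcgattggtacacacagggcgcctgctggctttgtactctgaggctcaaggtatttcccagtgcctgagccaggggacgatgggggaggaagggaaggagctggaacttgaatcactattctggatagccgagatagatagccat
Igfbp4: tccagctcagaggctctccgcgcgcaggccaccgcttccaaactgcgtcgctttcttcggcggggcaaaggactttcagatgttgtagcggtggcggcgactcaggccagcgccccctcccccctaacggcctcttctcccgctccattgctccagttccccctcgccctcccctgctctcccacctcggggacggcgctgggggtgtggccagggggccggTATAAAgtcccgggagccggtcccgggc
Igfbp5: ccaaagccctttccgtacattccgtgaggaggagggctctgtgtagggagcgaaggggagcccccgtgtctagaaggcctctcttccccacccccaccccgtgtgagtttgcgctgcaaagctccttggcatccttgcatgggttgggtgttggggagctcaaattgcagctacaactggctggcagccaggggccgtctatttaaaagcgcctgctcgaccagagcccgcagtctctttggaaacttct
Igfbp6: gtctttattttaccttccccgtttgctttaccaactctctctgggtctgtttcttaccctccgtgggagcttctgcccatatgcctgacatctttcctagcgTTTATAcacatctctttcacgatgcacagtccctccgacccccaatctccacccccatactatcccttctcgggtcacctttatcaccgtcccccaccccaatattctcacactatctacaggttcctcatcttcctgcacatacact
Igfbp7: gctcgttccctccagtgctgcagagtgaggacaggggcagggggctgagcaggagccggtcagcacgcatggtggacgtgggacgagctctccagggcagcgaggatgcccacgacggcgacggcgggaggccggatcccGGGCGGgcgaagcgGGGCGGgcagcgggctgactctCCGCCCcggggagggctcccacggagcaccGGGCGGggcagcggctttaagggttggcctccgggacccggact

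The Igfbp4 window held 1 TATAAA, 28 bases before the start, and the Igfbp6 window held 1, 148 bases before. TATAAA was in 12.4% of 32851 such windows of the mouse annotation. The Igfbp7 window held 4 GGGCGG matches, a motif in 32.7% of windows, and had 74% GC and 26 CpG sites against a median of 52.4% and 6 over all windows. The Igf1 and Igfbp5 windows held neither motif, with 52.8% and 58.8% GC. GAGGAAGT (2.44% of windows) and CACGTG (6.02%) were also searched on both strands; the searched motifs do not overlap one another, and neither of these was in any of the 5 windows. Igfbp2 and Igfbp5 lie 5457 bases apart on chromosome 1 on opposite strands. The antisense gene Igf1os overlaps Igf1 by 5117 bases and had 2 UMIs, and Igf2os overlaps Igf2 by 7124 bases and had 8.

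Igf1 RNA was highest in macrophage-like and fibroblast-like cells and near 0 in endothelial-like cells. In macrophage-like cells the adventitia had 196 CPM (interval 177 to 218) and the arch had 133 CPM (110.5 to 159.9). Descending library 1 had 291 CPM (236 to 354) and library 2 had 333 CPM (275 to 399). Fibroblast-like cells had 239.5 CPM in the adventitia (interval 226 to 253), 186 CPM in the arch (169.8 to 203), 39.7 CPM in descending library 1 (31.2 to 49.7) and 32.4 CPM in library 2 (26.4 to 39.2). The adventitial and arch fibroblast levels did not overlap those of the descending libraries. Endothelial-like cells held 8.73 CPM in the arch and 1.15 and 1.02 CPM in the descending libraries. Red-cell-like and B-cell-like cells, which should lack Igf1, gave 13.7 CPM in the adventitia, 0 CPM in the arch (up to 9.58), 16.1 CPM in descending library 1 (3.31 to 46.9) and 8.79 CPM in library 2 (0.22 to 49). The descending endothelial levels lay below or at the low end of those intervals and are read as background. Much of the RNA of red cells is haemoglobin, so free RNA was also compared as UMIs per cell, a view added after the data were seen. Arch endothelial-like cells then had 0.0843 Igf1 UMIs per cell (0.069 to 0.102), above the 0 of red- and B-cell-like cells (up to 0.0625), so the arch level overlapped the background interval in CPM and lay above it per cell.

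Macrophage-like cells exceeded endothelial-like cells in Igf1 by 6.64 ± 0.64 on the log2 scale (edgeR quasi-likelihood, SE, 3 intimal libraries each, adjusted p = 5.89e-07; 8.42 without the arch, 5.96 without descending library 2, 7.46 under DESeq2), and fibroblast-like cells exceeded endothelial-like cells by 4.60 ± 0.58 (adjusted p = 9.27e-06). Both were higher in all 3 intimal libraries. Macrophage-like over fibroblast-like cells gave 2.05 ± 0.54 (adjusted p = 0.00732), but only in the descending libraries, since in the arch the macrophage level of 133 CPM lay below the fibroblast level of 186 CPM. That call was lost with all 4 libraries (1.55, adjusted p = 0.053), without the library block (1.64, 0.112), and without descending library 1 (1.63, 0.0845) or 2 (1.35, 0.114); without the arch the value was 3.27.

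Macrophage-like cells held 19.9% of all Igf1 UMIs in the adventitia, 15.6% in the arch, and 49% and 50.2% in the descending libraries. Fibroblast-like cells held 66%, 67.1%, 37.1% and 44.2% in the same order. The macrophage-like shares cover the named class only. They leave out unnamed cluster 25, with 112 adventitial cells and 8 macrophage markers matched. Unnamed cluster 14 is also left out, with 251 adventitial, 32 arch, and 11 and 16 descending cells and 5 macrophage markers matched.

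Macrophage-like cells divided into 2 types by marker genes. Lyve1 type cells match a list led by Lyve1, Folr2, Cd163 and Mrc1, known from resident macrophages along vessels, and numbered 276 in the adventitia, 40 in the arch, and 57 and 52 in the descending libraries. Intima resident type cells matched 7 genes of their list: Mmp12, Itgax, Mmp13, Acp5, Cd207, Ocstamp and Cxcl16. Atp6v0d2, Gpnmb and Trem2 of that list did not meet the marker rule. The type numbered 75 in the arch and 24 and 18 in the descending libraries, with 0 in the adventitia. A further 270 adventitial macrophage-like cells matched neither list. They held 911677 UMIs in all, against 922319 in the adventitial Lyve1 type. Their Igf1 and Igfbp4 levels are not given separately here. The Igf1 interval of all adventitial macrophage-like cells overlapped that of the Lyve1 type. That class includes the Lyve1 type, so the overlap does not compare the Lyve1 type with the other cells.

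Igf1 in Lyve1 type macrophages was 229 CPM in the adventitia (interval 199 to 262) and 334 CPM in the arch (259.5 to 422). Descending library 1 had 333 CPM (264 to 416) and library 2 had 384 CPM (312 to 468). The intima resident type held 72.4 CPM in the arch (53.5 to 95.7), 197 CPM in descending library 1 (122 to 301) and 191 CPM in library 2 (113 to 302). The Lyve1 type was higher in each of the 3 intimal libraries and their intervals did not overlap in the arch and in descending library 2. The fold change was 1.31 ± 0.27 on the log2 scale (edgeR, 3 libraries each, adjusted p = 0.002). The intima resident sums were small: 49 UMIs in 25 of 75 arch cells, 21 UMIs in 5 of 24 cells of descending library 1, and 18 UMIs in 7 of 18 cells of descending library 2. In the arch 65% of Lyve1 type and 33.3% of intima resident cells had an Igf1 UMI, at median depths of 5553 and 8973 UMIs per cell, and 41.5% and 12.8% did once each cell was thinned to 2000 UMIs; 0% of red- and B-cell-like cells did.

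**Figure D1:**
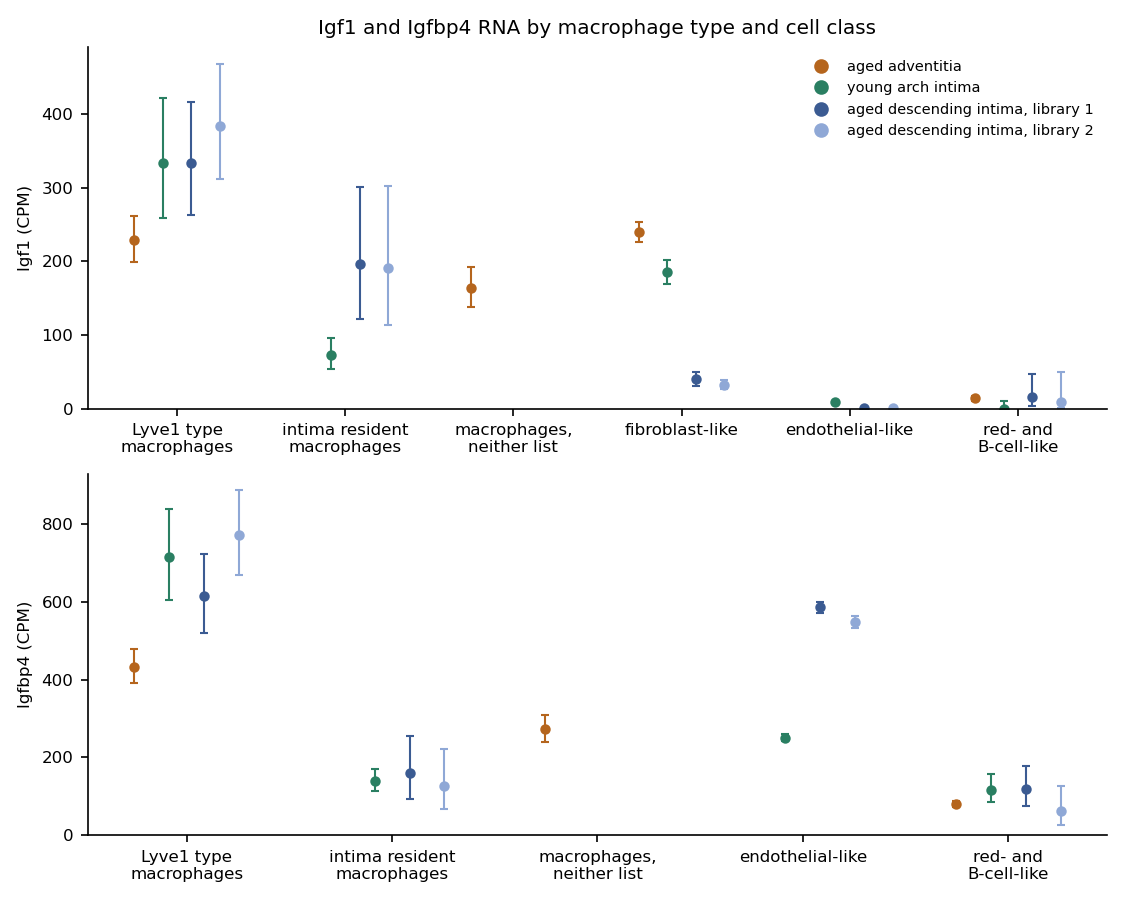
Igf1 (top) and Igfbp4 (bottom) in CPM by macrophage type and cell class, 1 point for each library with its exact Poisson 95% interval, which covers counting error only. Lyve1 type macrophages hold 229 to 384 CPM of Igf1 and 434 to 773 CPM of Igfbp4. The intima resident type holds 72.4 to 197 and 127 to 159 CPM. Adventitial macrophage-like cells matching neither list are plotted beside them. Fibroblast-like cells are left out of the lower panel because they hold 1889 CPM or more.

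Igfbp4, which codes for a binding protein that limits IGF action and is cut by PAPP-A, parted the macrophage types further than Igf1 did. Lyve1 type cells held 434 CPM in the adventitia (interval 392 to 478) and 715 CPM in the arch (605 to 840.4). Descending library 1 had 616 CPM (519 to 725) and library 2 had 773 CPM (669 to 888). The intima resident type held 139 CPM in the arch (112 to 169.9), 159 CPM in descending library 1 (92.9 to 255) and 127 CPM in library 2 (65.8 to 222), beside the 117, 118 and 61.5 CPM of red- and B-cell-like cells there. The fold change was 2.19 ± 0.23 on the log2 scale (edgeR, adjusted p = 2.4e-06), in the same direction in 3 of 3 libraries. Of the 5 members that passed the low-count filter in this comparison, these 2 were called, both higher in the Lyve1 type; 24.7% of all 3533 genes tested were called (12.4% higher, 12.3% lower). The others gave 0.10 (Igfbp5), 0.08 (Igfbp6) and 0.27 (Igfbp7), with adjusted p of 0.881, 0.898 and 0.585. The fibroblast list had 0 of 8 tested markers called between these types, and so did the endothelial list. The fit rests on 6 sums and has 2 residual degrees of freedom.

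**Figure D2:**
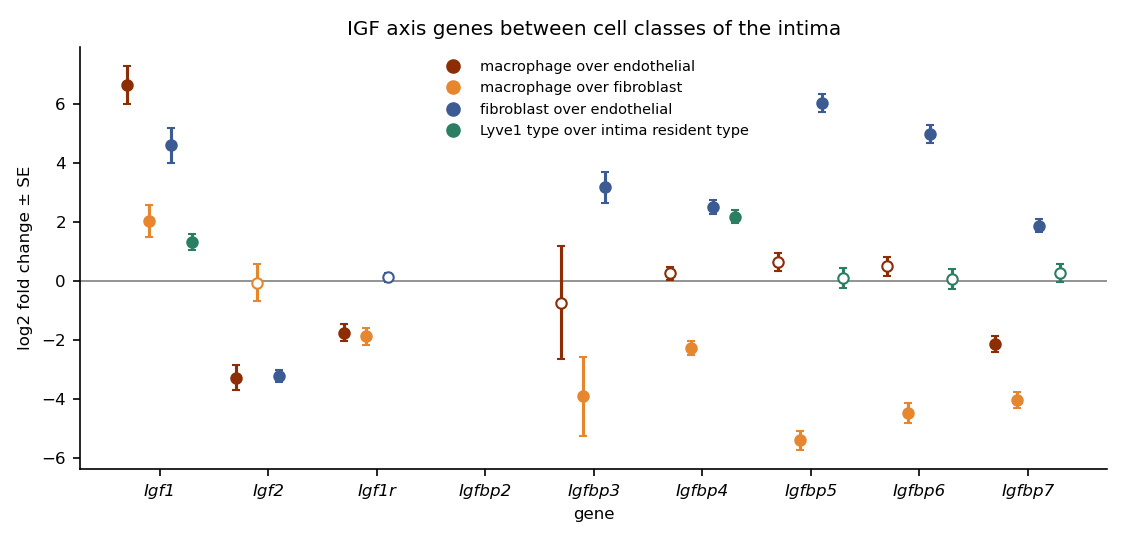
Log2 fold change ± SE of each member between cell classes and between macrophage types, from edgeR fits over 3 intimal libraries; filled points have an adjusted p below 0.05. Igf1 is the member highest in macrophage-like over endothelial-like cells (6.64) and Igfbp5 the one lowest against fibroblast-like cells (-5.39).

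Igf2, the fetal growth ligand that is known to be imprinted, ran the other way. Endothelial-like cells held 20.7 CPM in the arch (18.2 to 23.4), 44.4 CPM in descending library 1 (40.5 to 48.7) and 41.3 CPM in library 2 (37.2 to 45.8). Fibroblast-like cells held 2.01 CPM in the adventitia, 1.83 CPM in the arch, and 4.76 and 3.77 CPM in the descending libraries, and macrophage-like cells 0.55, 1.13, 5.87 and 2.84 CPM in that order. The log2 fold change over endothelial-like cells was -3.26 ± 0.42 for macrophage-like cells (edgeR, adjusted p = 1.3e-05) and -3.21 ± 0.22 for fibroblast-like cells (adjusted p = 8.97e-09).

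Igf2 varied between endothelial clusters. Cluster 8, led by Adra2a, had 4 arch cells and 440 and 273 descending cells and held 85.6 and 93.4 CPM in the descending libraries. Cluster 5, led by Gja5 and Klk10, held 73.7 CPM (39.3 to 126) in the arch and 43 and 40.1 CPM in the descending libraries. Cluster 3, led by Edn1 and Bmp4, had 617 arch cells and held 12.5, 11.6 and 11.7 CPM in the arch and descending libraries. Over all endothelial-like cells the arch gave a log2 fold change of -0.98 ± 0.17 (edgeR, adjusted p = 5.02e-07). Within clusters 3, 11 and 2 the arch differed from the descending libraries by 0.16, 0.06 and 0.20, none called.

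Igf1r, the receptor, was spread over both structural classes compared. It was not limited to them: adventitial ILC2-like cells and cluster 16 held more than adventitial fibroblast-like cells, as given under Other observations. Endothelial-like cells held 45.6 CPM in the arch and 70.8 and 62.4 CPM in the descending libraries, and fibroblast-like cells 47.1 CPM in the adventitia, 49.9 CPM in the arch, and 51.3 and 71.3 CPM in the descending libraries. Macrophage-like cells held 13.6, 12.4, 14.7 and 14.2 CPM in that order, and red- and B-cell-like cells 2.89, 0, 5.35 and 0 CPM. Macrophage-like cells were lower than endothelial-like cells, with a log2 fold change of -1.74 ± 0.28 (edgeR, adjusted p = 0.000143), and lower than fibroblast-like cells, with -1.87 ± 0.29 (adjusted p = 9.89e-05); fibroblast-like over endothelial-like cells gave 0.13 ± 0.14 (adjusted p = 0.5).

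Of the binding proteins, Igfbp4, Igfbp5, Igfbp6 and Igfbp7 were higher in fibroblast-like than in macrophage-like or endothelial-like cells. Igfbp4 stood at 1889, 2336, 2035 and 2221 CPM in fibroblast-like cells of the adventitia, the arch and the 2 descending libraries, and at 249.9, 586 and 548 CPM in endothelial-like cells of the arch and the descending libraries. Igfbp5, which binds extracellular matrix, stood at 746 CPM in adventitial fibroblast-like cells, 3048 CPM in arch ones, and 3551 and 4286 CPM in descending ones. Igfbp6, which prefers IGF2 over IGF1, stood at 1104, 1623, 2079.7 and 1943 CPM in that order. In endothelial-like cells Igfbp5 was 93.5, 44.6 and 58.5 CPM and Igfbp6 was 114, 48.6 and 58.9 CPM in the arch and the descending libraries, beside 72.7, 37.5 and 96.7 CPM and 104, 58.9 and 44 CPM in red- and B-cell-like cells. Per cell, endothelial Igfbp5 in both descending libraries and Igfbp6 in library 1 overlapped red- and B-cell-like cells and are read as background. Igfbp6 in library 2 lay above them, at 0.402 UMIs per cell against 0.152, and so did the arch endothelial values, at 0.903 UMIs per cell of Igfbp5 against 0.475 and 1.10 of Igfbp6 against 0.678.

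Igfbp7 was held by fibroblast-like and endothelial-like cells. Fibroblast-like cells held 1781 CPM in the adventitia, 1493 CPM in the arch, and 1115 and 1019.5 CPM in the descending libraries, and endothelial-like cells 781 CPM in the arch and 236 and 269.8 CPM in the descending libraries. Macrophage-like cells held 98.7 CPM in the adventitia, 135 CPM in the arch, and 35.2 and 48.3 CPM in the descending libraries, beside 113, 127, 48.2 and 26.4 CPM in red- and B-cell-like cells. Macrophage Igfbp7 is read as background, and so are macrophage Igfbp5 (17.4, 109, 29.4 and 102 CPM) and Igfbp6 (104, 139, 52.9 and 45.5 CPM). Per cell, all 3 overlapped red- and B-cell-like cells in each of the 4 libraries. Those reference cells numbered 59 in the arch and 44 and 33 in the descending libraries, so overlap there does not show absence. Endothelial Igfbp4 and Igfbp7 lay above them per cell in each intimal library, at 2.41 and 7.55 UMIs in the arch against 0.763 and 0.831.

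Fibroblast-like over endothelial-like cells gave a log2 fold change of 6.03 ± 0.31 for Igfbp5 (edgeR, adjusted p = 3.64e-10), 4.98 ± 0.31 for Igfbp6 (3.4e-09), 3.17 ± 0.54 for Igfbp3 (0.000163; 4.29 without descending library 1), 2.51 ± 0.23 for Igfbp4 (3.02e-07) and 1.88 ± 0.23 for Igfbp7 (5.14e-06). Of the 8 members that passed the low-count filter, 7 were called, 6 higher and Igf2 lower, where 47.4% of 11835 genes were called (23.9% higher, 23.5% lower). Igfbp3 rested on few UMIs. Fibroblast-like cells held 38 in 7 of 436 arch cells, and 8 in 5 of 337 and 44 in 16 of 649 descending cells. Endothelial-like cells held 8 in the arch and 26 and 8 in the descending libraries, and macrophage-like cells 1, 0 and 0. Macrophage-like over fibroblast-like cells gave 7 calls of 8, with Igf1 higher and Igf1r, Igfbp3, Igfbp4, Igfbp5, Igfbp6 and Igfbp7 lower, where 38.2% of genes were called (17.5% higher, 20.7% lower); the Igfbp3 call (-3.90 ± 1.33, adjusted p = 0.0307) was lost without the arch (-8.47, 0.0717) and gave -4.64 with all 4 libraries, and Igfbp6 (-4.47) gave -5.22 without the arch. Macrophage-like over endothelial-like cells gave 4 calls of 8, with Igf1 higher and Igf2, Igf1r and Igfbp7 lower, where 42% of genes were called (19.3% higher, 22.7% lower).

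**Figure D3:**
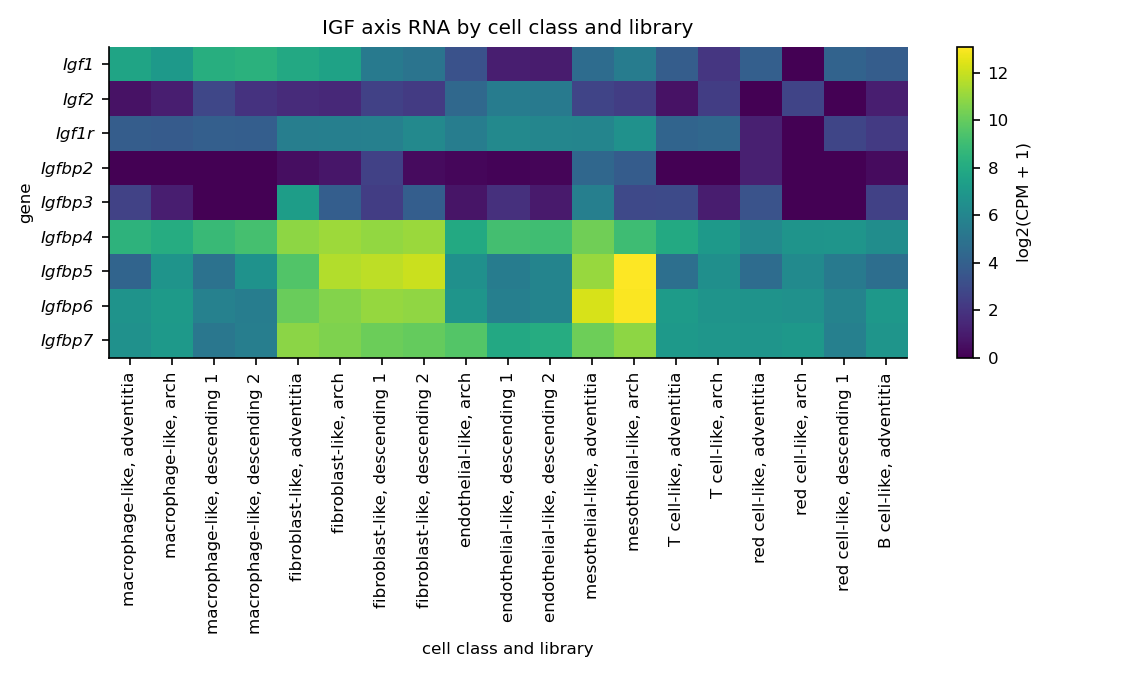
Level of each of the 9 genes as log2(CPM + 1), by cell class and library. Igf1 is bright in macrophage-like and fibroblast-like columns, Igf2 in endothelial-like ones, and Igfbp5 and Igfbp6 in mesothelial-like columns, where the arch holds 8713 and 8163 CPM.

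Mesothelial-like cells, the lining cells of serous surfaces, were few, with 162 in the adventitia and 44 in the arch. They held the highest Igfbp5 and Igfbp6 of the classes of those libraries, at 2138 and 4992 CPM in the adventitia and 8713 and 8163 CPM in the arch. They also held the highest Igfbp2, at 19.5 CPM (12.2 to 29.6, 22 UMIs) in the adventitia and 12.8 CPM (4.71 to 27.9, 6 UMIs) in the arch. Igfbp2 was at 0 in the macrophage-like cells of every library and passed no filter, so it was not tested.

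Within a class, each of the other preparations was set against the descending intima. Those fits have 1 residual degree of freedom and borrow nearly all their spread across genes. The median prior degrees of freedom were 1471 in endothelial-like cells and infinite in the other fits. Their p-values thus rest on a spread pooled over genes and hardly on a gene's own spread between libraries. The fits also assume that the lone library varies like the descending pair, and they share the descending libraries. Fewer cells of a type and less RNA per cell cannot be told apart within a sum.

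Fibroblast-like cells of the arch carried more Igf1 than those of the descending intima, by 2.40 ± 0.21 on the log2 scale (edgeR, adjusted p = 1.67e-26). This was the only member called of 8 tested, where 5.02% of 11564 genes were called (2.8% higher, 2.22% lower). Adventitial fibroblast-like cells exceeded descending ones by 2.91 ± 0.21 (adjusted p = 9.9e-43). Values within single clusters were added after the data were seen. In fibroblast cluster 1, led by Dact2 and Pi16 and with 43 adventitial cells, Igf1 stood at 98.5 CPM (59.3 to 154) in the adventitia, 168 CPM (152 to 184) in the arch, and 31.8 and 21 CPM in the descending libraries. There the arch gave 2.73 ± 0.21 (adjusted p = 6.24e-12; 3.89% of genes called) and the adventitia 1.92 ± 0.41 (0.00276; 2.59%). Cluster 20, led by Cilp and Mfap4, held 439, 480.2, 438 and 568 CPM of Igf1 in the adventitia, the arch and the descending libraries, with intervals that all overlap. Smooth muscle markers summed to 266 CPM in arch fibroblast-like cells and 58.2 and 34.9 CPM in descending ones, and macrophage markers summed to 255 CPM, against 124 and 96.8 CPM. Their part in the Igf1 difference was not tested.

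**Figure D4:**
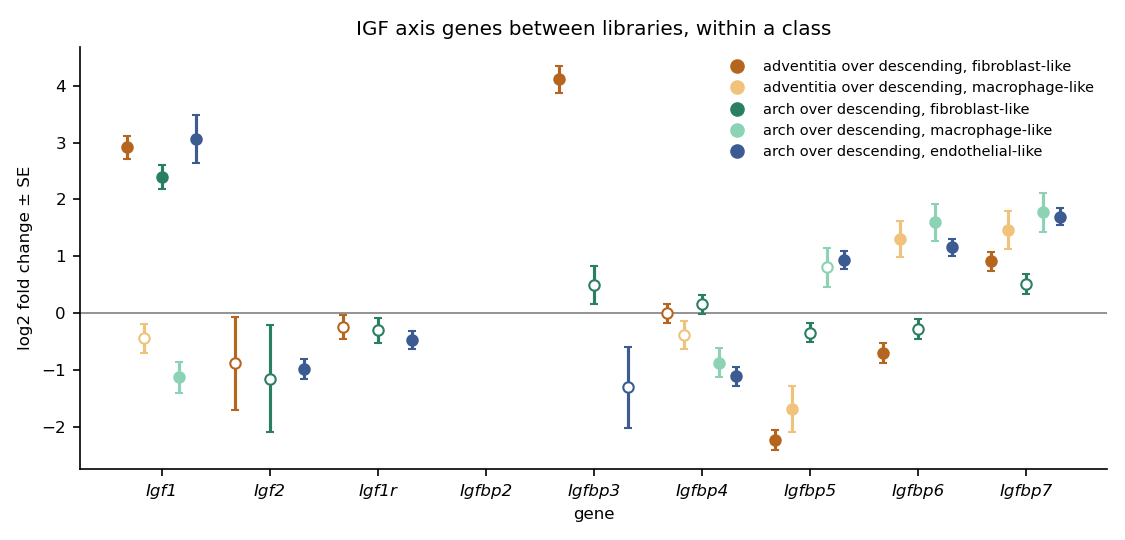
Log2 fold change ± SE of each member, adventitia or arch over descending intima, within a class; filled points have an adjusted p below 0.05. Igf1 is higher in arch and adventitial fibroblast-like cells (2.40 and 2.91) and lower in arch macrophage-like cells (-1.13).

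Adventitial fibroblast-like cells differed in 5 of 8 members, 3 higher and 2 lower, where 25.1% of genes were called (14.4% higher, 10.7% lower). Igfbp3, which codes for the main carrier of circulating IGF, was 155 CPM (144 to 167) in the adventitia and 4.23 and 13.8 CPM in the descending libraries, a difference of 4.11 ± 0.23 on the log2 scale (edgeR, adjusted p = 6.8e-67), or 5.37 without descending library 2 and 3.62 without library 1. Its adventitial level ranged from 10.4 CPM in cluster 1 to 99.5 CPM in cluster 6, 157 CPM in cluster 12 and 724 CPM (631 to 827) in cluster 20, against 27.4 CPM (1 UMI, 0.69 to 152) and 0 CPM (up to 65.4) in cluster 20 of the descending libraries. The log2 fold change was -2.23 ± 0.18 for Igfbp5 (adjusted p = 2.87e-33), -0.70 ± 0.18 for Igfbp6 (0.000665; 0.116 under DESeq2) and 0.91 ± 0.17 for Igfbp7 (1.78e-06). Within cluster 1 none of these was called (0.04, -0.14, 0.12 and 0.20 for Igfbp3, Igfbp5, Igfbp6 and Igfbp7), and the Igfbp3 value there rests on 2 adventitial UMIs, with an SE of 1.17. Clusters 6 and 12 hold 784 and 512 adventitial cells. Adipocyte markers summed to 4598 CPM in adventitial fibroblast-like cells and 32.8 and 28.9 CPM in descending ones, with 6 of 6 higher; macrophage markers summed to 506 CPM, against 124 and 96.8 CPM, with 10 of 10 higher. Their part in these differences was not tested.

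**Figure D5:**
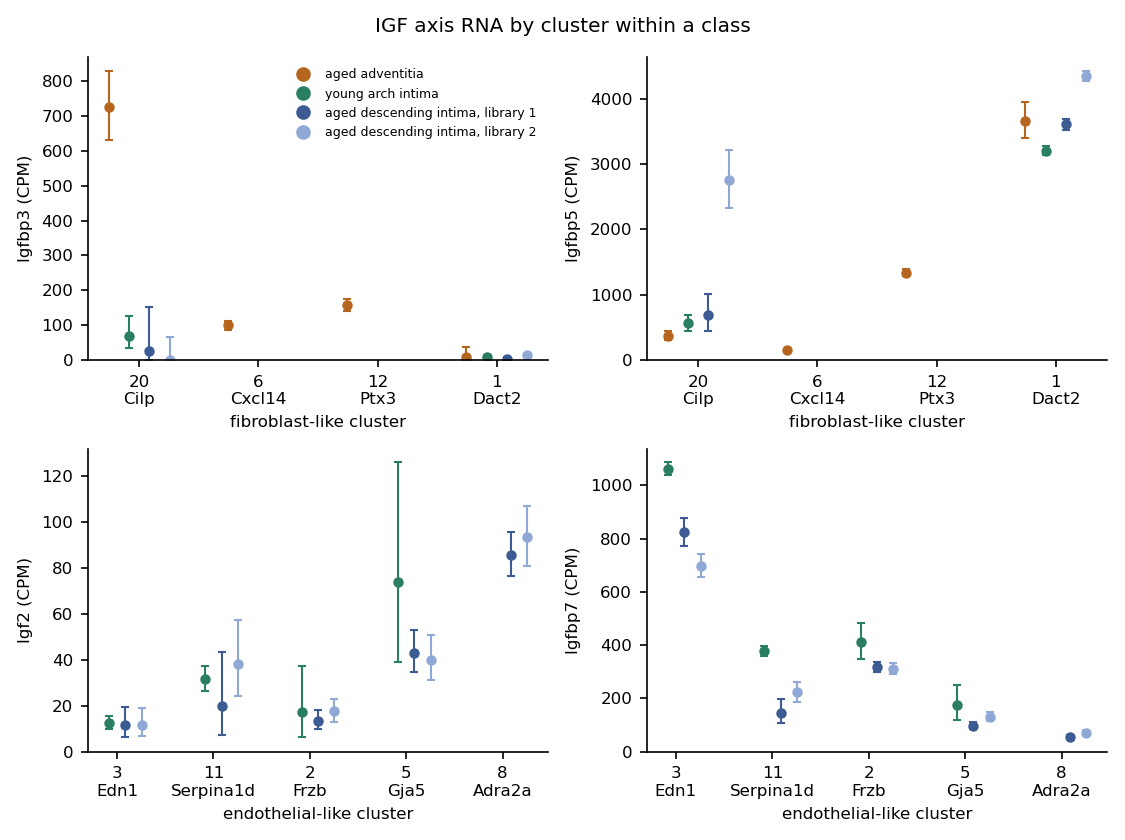
Igfbp3 and Igfbp5 in fibroblast-like clusters (top) and Igf2 and Igfbp7 in endothelial-like clusters (bottom), in CPM with exact Poisson 95% intervals, 1 point for each library with at least 10 cells. Igfbp3 reaches 724 CPM in cluster 20 of the adventitia, and Igf2 reaches 85.6 and 93.4 CPM in cluster 8 of the descending libraries.

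Endothelial-like cells of the arch and the descending intima differed in 7 of 8 members, 4 higher in the arch and 3 lower, where 13.3% of 12603 genes were called (7.29% higher, 6% lower). The log2 fold change was 1.70 ± 0.16 for Igfbp7 (edgeR, adjusted p = 2.13e-24) and -1.11 ± 0.17 for Igfbp4 (4.33e-09). Igfbp5 (0.93 ± 0.15), Igfbp6 (1.16 ± 0.15) and Igf1 (3.06 ± 0.42) were also called higher; their arch levels lay near background in CPM and above it per cell. Igf1r gave -0.48 ± 0.16 (0.0295), a call lost under DESeq2 (0.668) and with doublets kept (0.0879). Within clusters Igfbp7 was higher in cluster 3 (0.54, 0.0155) and cluster 11 (1.06) but not called in cluster 2 (0.43, 0.388), and Igfbp4 lower in clusters 3 (-0.69, 0.0036) and 2 (-1.16, 0.00119) but not called in cluster 11 (-0.70, 0.0722), where 5.96%, 3.55% and 0.978% of genes were called in clusters 3, 11 and 2. Igfbp5 was called higher in cluster 3 (1.13) but not in clusters 11 (0.04) and 2 (0.94). Igfbp6 was called higher in clusters 3 (1.00) and 11 (1.12) but not in cluster 2 (1.02). Igf1 was called higher in cluster 3 (2.37) and had no test in clusters 11 and 2. Smooth muscle markers summed to 589 CPM in arch endothelial-like cells and 154 and 136 CPM in descending ones, and fibroblast markers to 2862 CPM, against 1748 and 2127 CPM. Their part was not tested.

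Macrophage-like cells of the arch held less Igf1 than those of the descending intima, with a log2 fold change of -1.13 ± 0.27 (edgeR, adjusted p = 0.00153), and less Igfbp4, with -0.87 ± 0.26 (0.0165). With DESeq2 the adjusted p was 0.160 for Igf1 and 0.229 for Igfbp4, and without the low-count filter 0.142 for Igfbp4. Igfbp6 (1.59 ± 0.33) and Igfbp7 (1.78 ± 0.34; 1.01 with doublets kept) were called higher at background levels, so 4 of 5 members were called, where 5.68% of 7269 genes were (2.79% higher, 2.89% lower). The makeup differed too: 40 of 115 arch macrophage-like cells were Lyve1 type, against 57 of 81 and 52 of 70 in the descending libraries. The intima resident type, the other 75 arch cells, also held less Igf1 there, at 72.4 CPM (53.5 to 95.7), against 197 (122 to 301) and 191 CPM (113 to 302) in the descending libraries; these intervals do not overlap, and the difference was not tested. Within the Lyve1 type Igf1 gave -0.12 ± 0.29 (0.968) and Igfbp4 0.03 ± 0.27 (0.996); 1 of 5 members, Igfbp7 (2.15 ± 0.43), was called, where 1.21% of 4200 genes were (0.571% higher, 0.643% lower), and that call was lost under DESeq2 (adjusted p = 1). Adventitial macrophage-like cells gave -0.45 for Igf1 (0.345) and -0.38 for Igfbp4 (0.445) against descending ones, with Igfbp6 and Igfbp7 higher and Igfbp5 lower at background levels, 3 of 5 called where 10.2% of genes were (5.68% higher, 4.48% lower); all 3 calls were lost under DESeq2 (0.701, 0.581 and 0.793). Adventitial Lyve1 type cells gave -0.41 ± 0.26 for Igf1 (0.384) and -0.44 for Igfbp4 (0.349), with 3 of 5 members called where 11.5% of genes were (7.26% higher, 4.26% lower); those calls, of Igfbp5, Igfbp6 and Igfbp7, were lost under DESeq2 (0.999, 0.999 and 0.797), and that of Igfbp5 (-1.53) also without the filter (0.073) and with doublets kept (-0.08, 0.943). Without descending library 2 that Igfbp5 value was 0.02, and with doublets kept Igfbp7 (1.43) gave 2.17. In all adventitial macrophage-like cells Igfbp5 gave -1.69, or -0.62 with doublets kept (adjusted p = 0.32), -2.31 without descending library 1 and -0.54 without library 2. Fibroblast markers summed to 2007 CPM in arch macrophage-like cells and 1031 and 1322 CPM in descending ones, and in adventitial macrophage-like cells adipocyte markers summed to 5259 CPM (4725 CPM in the Lyve1 type), against 26.4 and 22.7 CPM in descending ones. Their part was not tested. Whether the arch contrast differed between classes was tested in 1 fit added after the data were seen, and 4 members were called between fibroblast-like and endothelial-like cells (1.53% of genes), 2 between fibroblast-like and macrophage-like cells (0.639%) and 1 between macrophage-like and endothelial-like cells (1.25%).

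Other genes of the pathway came from lists of 53 genes of ligand supply, receptors, adaptors, binding protein relatives, proteases and signalling. Fibroblast-like over endothelial-like cells gave 14 higher and 12 lower of 41 tested (63.4%, against 47.4% of all genes), with a median log2 fold change of -0.05 against -0.02 over all genes. Htra3, a serine protease, averaged 693 CPM in fibroblast-like and 17.8 CPM in endothelial-like cells (5.44 ± 0.21, edgeR adjusted p = 1.69e-11), and Prss23 averaged 994 and 32 CPM (5.17, 3.93e-11). Macrophage-like over endothelial-like cells gave 4 higher and 16 lower of 41 (48.8%, against 42%), with a median of -0.65 against -0.17, and macrophage-like over fibroblast-like cells 1 higher and 19 lower of 41 (48.8%, against 38.2%), with -0.86 against -0.10. Ctsd, a lysosomal protease, was the gene higher in macrophages there (0.98, adjusted p = 0.005) and was also higher in the Lyve1 type than in the intima resident type (1.13 ± 0.22, 0.00098), where 1 of 8 was higher and 1 lower (25%, against 24.7%), Pik3r1 (-0.98, 0.0225), with a median of 0.49 against 0.02.

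Between libraries, the arch over the descending endothelium gave 6 higher and 4 lower of 40 (25%, against 13.3% of all genes), with a median log2 fold change of 0.09 against -0.01 over all genes, among them Adamts1 (-1.31, edgeR adjusted p = 1.32e-12), Prss23 (-0.97), the insulin receptor gene Insr (-0.97, 4.03e-06) and Ccn1 (0.81, 1.16e-05). The arch over the descending fibroblasts gave 5 higher and 1 lower of 43 (14%, against 5.02%), with a median of -0.04 against -0.01. Stc2, whose protein blocks PAPP-A, was higher (2.08, 3.66e-05), and so was H19, the imprinted RNA beside Igf2 (1.69, 0.000238). The adventitia over the descending fibroblasts gave 11 higher and 3 lower of 43 (32.6%, against 25.1%), with a median of 0.03 against -0.01. Pappa, the protease that cuts IGFBP4, averaged 27.3 CPM in the adventitia against 4.33 CPM (3.06 ± 0.36, 3.76e-16), and the adaptor gene Irs2 averaged 109 against 16.1 CPM (2.87 ± 0.22, 1.58e-35). Macrophage-like cells gave 1 higher and 1 lower of 24 in the arch (8.33%, against 5.68%), with Ctsd lower (-1.52, 1.63e-07), and 1 lower of 24 in the adventitia (4.17%, against 10.2%), Htra1 (-1.88, 0.000222); the medians were -0.20 against -0.01 and -0.28 against -0.07.

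Across 26 class-by-library sums, which share libraries and cell totals, the genes with the pattern most like Igf1 by Pearson correlation of log2(CPM + 10) were Abca9 (0.85), Maf (0.83), Rab3il1 (0.81), Slc46a1 (0.80) and Cmtm3 (0.80), among 12335 genes. Those for Igf2 were Tm6sf2, Dll1 and Plekha6 (0.97, 0.97 and 0.96), for Igf1r Zfp609, Pard3 and Urgcp, and for Igfbp3 Fetub, Steap4 and Sult1e1. Those for Igfbp2 were Cobl, Myrf and Ptgds, for Igfbp4 Klhl13, Fam149a and Samd4, for Igfbp5 Sema3c, Ildr2 and Wnt9a, for Igfbp6 Gpc3, Fbln1 and Dpp4, and for Igfbp7 Serpinh1, Map1b and Abi3bp. The correlation between Igfbp5 and Igfbp6 was 0.91. These values describe the sums and carry no test.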

How the data were processed

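The libraries were made with the 10x Chromium 3′ kit, version 2. The deposited files hold whole-number counts of UMIs per gene and barcode, made by the authors with Cell Ranger 2.1.2 on build mm10, per the submitters' processing notes; the annotation release is not given in the sources used here. Whether counting used strand is not given either.

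Barcodes with under 200 genes or over 10% mitochondrial UMIs were removed. Scrublet's own threshold marked 2, 17, 6 and 23 barcodes in the adventitia, the arch and descending libraries 1 and 2, so the highest-scoring barcodes at 0.8% per 1000 cells were removed instead (646, 58, 42 and 41). Cells were scaled to 10000 UMIs, and 2000 variable genes without the 9 members, 30 components, 15 neighbours and Leiden resolution 1 gave the clusters (scanpy 1.11.5, Python 3.11.15). Clusters were named from 20 marker lists and needed 3 markers. A cluster was left unnamed where another list had more genes among its 10 leading genes. A marker counted where at least 20% of cells had it, at 2 times the 25th percentile of background clusters and 10% or more of its highest level. Macrophage types were named from clusters at resolution 0.5. A class needed 20 cells in a library, a macrophage type or cluster 10. Symbols were found for 27645 genes and not for 353.

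Counts were summed per library and class. Sums were tested with edgeR 4.0.16 (R 4.3.3), with TMM scaling, filterByExpr and a quasi-likelihood fit, and adjusted with Benjamini-Hochberg over all genes tested, with a threshold of 0.05. Class and macrophage type fits hold the library as a block over the 3 intimal libraries; library contrasts are fitted within a class. The statistical scripts were tested on simulated data with known changes. Recovery of 2-fold changes ranged from 30.6% (adventitial over descending macrophages) to 90.1% (fibroblast over endothelial). It was 42.4% for the adventitial Lyve1 type contrast. Recovery of 4-fold changes was 93.1% to 97.9%. Uncalled values in the adventitial macrophage contrasts therefore do not show that levels were equal. Each library's precision follows its depth: intervals are 95% Poisson or Clopper-Pearson, and cover counting error only. No test was made for the adventitial endothelial-like class, which had 6 cells, or for the unnamed cluster 13. Alternatives were DESeq2 1.42.0, no low-count filter, doublets kept, the members kept in clustering, Leiden resolution 2, other blocks and libraries left out; for levels, totals without haemoglobin, mitochondrial and ribosomal protein genes, and cells thinned to 2000 UMIs. UMIs per cell against red- and B-cell-like cells were added after the data were seen.

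All 9 members were named in every comparison; from the pathway lists up to 4 genes of lowest adjusted p were named, and for each member the most alike genes, 5 for Igf1 and 3 for the others. The members and lists were chosen with earlier results of these data known. Promoter windows are from RefSeq, and 9 of 9 genes matched.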

Additional observations from a re-analysis of the deposited data

Results flagged for a closer look

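The arch against the descending intima gave different fold changes in different classes for some members, by a test of the difference itself in 1 edgeR fit over the 9 sums of the 3 intimal libraries, with 2 residual degrees of freedom and chosen after the data were seen. Igf1 was higher in arch fibroblast-like cells and lower in arch macrophage-like cells. The lower macrophage value was not called under DESeq2, and within the Lyve1 type Igf1 gave -0.12. The fibroblast minus macrophage difference was 3.462 on the log2 scale (adjusted p = 4.68e-10), where 0.639% of 12361 genes were called. The macrophage minus endothelial difference in Igf1 was -4.077 (4.56e-08; 1.25% of genes called), with an endothelial level of 8.73 CPM in the arch and 1.15 and 1.02 CPM in the descending libraries, the descending ones read as background. For Igfbp6 the fibroblast minus macrophage difference was -1.958 (0.000942), with macrophage levels at background.

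Between fibroblast-like and endothelial-like cells the arch contrast differed by 1.288 for Igfbp4 (adjusted p = 0.00238), -1.261 for Igfbp5 (0.0108, and 0.626 under DESeq2), -1.429 for Igfbp6 (0.000807) and -1.177 for Igfbp7 (0.00517), where 1.53% of genes were called. Endothelial Igfbp5 and Igfbp6 were near background in CPM. Smooth muscle markers were higher in arch cells of all 3 classes, and their part was not tested.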

How the results depend on the processing

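Of 570 alternative fold changes of members, 501 were counted as unchanged, 32 lost the call, 1 gained it and 18 were reversed. A further 18 were values with no test that moved. Those of the 501 with a test kept direction and side of the threshold. The others were library contrasts with a library left out, which have no test and so no side to keep. Among these, Igfbp4 changed sign in adventitial fibroblasts and in arch Lyve1 type cells. In all, 23 changed sign, 5 of these being values with no test and no call. The calls of Igf1 over endothelial-like cells and of Igf1 and Igfbp4 in the Lyve1 type held in all their alternatives. With DESeq2 the genes called fell to 466 of 872 for Lyve1 against intima resident type, to 400 of 1675 (endothelial), 51 of 581 (fibroblast), 70 of 413 (macrophage) and 3 of 51 (Lyve1 type) for the arch, and to 596 of 2900 (fibroblast), 150 of 739 (macrophage) and 66 of 484 (Lyve1 type) for the adventitia. Without the low-count filter the arch macrophage count was 215, and with doublets kept the arch counts were 1078 (endothelial) and 241 (fibroblast). Within fibroblast cluster 1 the adventitia count was 282, and within endothelial clusters 3, 11 and 2 the arch counts were 580, 278 and 105.

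Changes of sign were as follows, and the cause was not tested. Igfbp4 between adventitial and descending fibroblasts was 0.000436 with DESeq2 and 0.00672 without the filter. Between macrophage types, Igfbp7 was -0.398 with doublets kept and -0.143 without the library block, where Igfbp5 was -0.0575 and Igfbp6 -0.314. Within clusters, Igfbp6 in adventitial fibroblasts was 0.116, and Igf2 in arch endothelium was 0.155, 0.0551 and 0.198. With 1 library left out, Igfbp3 in macrophages against endothelium ranged from -5.88 to 0.415, Igf1r in fibroblasts against endothelium from -0.0193 to 0.338, Igf2 in macrophages against fibroblasts from -0.417 to 0.181, Igfbp5 and Igfbp6 between macrophage types from -0.293 to 0.216 and from -0.106 to -0.0582, and Igfbp5 in adventitial Lyve1 type cells from -2.21 to 0.0194. Library contrasts with a library left out are values with no test, and 5 uncalled ones also crossed 0: Igf1r in fibroblasts of the arch (-0.525 to 0.0148) and of the adventitia (-0.461 to 0.0652), Igfbp4 in adventitial fibroblasts (-0.0974 to 0.0808), and Igfbp4 (-0.119 to 0.212) and Igfbp5 (-0.186 to 2.03) in arch Lyve1 type cells. Of 324 alternative levels and shares 161 moved. With haemoglobin, mitochondrial and ribosomal protein genes left out of the totals, red- and B-cell-like cells held 27.8, 0, 124 and 30.1 CPM of Igf1 in the adventitia, the arch and the descending libraries, and 162, 792, 911 and 211 CPM of Igfbp4, where macrophage-like cells held 445, 343, 571 and 727 CPM and endothelial-like cells 319, 748 and 679 CPM (the arch and the descending libraries). Arch endothelial Igf2 was then 26.4 CPM, against 35.2 CPM (2 UMIs) in red- and B-cell-like cells, and lay above them per cell. Per cell, both classes lay above red- and B-cell-like cells in Igfbp4 in every library used. No paired analysis was possible because the arch and the adventitia have 1 library each. The alternative with all 4 libraries used 11 sums, since the named endothelial-like class had 6 adventitial cells. Low UMI sums limit Igfbp2, Igfbp3 and the intima resident type.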

Other observations

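Classes outside the comparisons also held members, given here as values from the adventitia, with no test. Igf1r stood at 106.5 CPM (68.9 to 157) in ILC2-like cells, 75.2 CPM in cluster 16, led by Tnfrsf4, and 3.69 CPM in B-cell-like cells. Igfbp7 stood at 2770 CPM in cluster 13, led by Gpihbp1, and 2296 CPM in Schwann-like cells. Igfbp5 stood at 1403 CPM in cluster 27, led by Ccl21a and Mmrn1, and Igfbp3 at 118 CPM in cluster 13. Igfbp4 stood at 250.6 CPM in T-cell-like cells, against 80 CPM in red- and B-cell-like cells.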
